A study of Rattus norvegicus with 24 samples.

Results

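The genes described here encode the nuclear subunits of the oxidative phosphorylation (OXPHOS) complexes, measured in colonic tumours and normal colon of Pirc rats with and without dextran sodium sulfate (DSS). A gene probe was a member when its name in the array files, or the current symbol of its accession, began with Ndufa, Ndufb, Ndufc, Ndufs, Ndufv, Uqcr, Cox followed by 4 to 8, or Atp5, or was Sdha, Sdhb, Sdhc or Sdhd. This gave 95 probes of 79 genes among 41012 gene probes. Of these genes, 78 passed the filter on signal, among 26511 features that passed in all, and Cox8c did not. The 78 genes comprised 31 of complex I, 4 of complex II, 6 of complex III, 14 of complex IV and 15 of complex V, which are 70 subunits and close relatives of subunits. The name rule also took in 4 assembly factors of complex I, the ATP synthase inhibitor Atp5if1 and 3 other genes. Among the complex I genes is Ndufa10l1, a relative of Ndufa10, and among those of complex IV are the pseudogene Cox6c-ps1 and Cox7a2l, which is known for joining complexes III and IV into supercomplexes. No probe was named here for some genes of these complexes, among them Cox6b1, Cox7a1, Ndufa4 and Ndufa4l2. The subunits that mitochondrial DNA encodes were not analysed here.

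Oxidative phosphorylation takes place in the inner mitochondrial membrane. Complexes I and II pass electrons from NADH and succinate to ubiquinone, complex III passes them on to cytochrome c, and complex IV hands them to oxygen. Complexes I, III and IV pump protons, and complex V, the ATP synthase, uses the proton gradient to make ATP. Colonocytes are known to oxidize butyrate from the gut bacteria by this route, and complex II is at the same time an enzyme of the tricarboxylic acid (TCA) cycle.

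All animals were male (ACIxF344)F1-Pirc rats of genotype Apc-Pirc/+, which carry a germline mutation in 1 copy of the tumour suppressor Apc, and all were 97 days old. The 4 groups were tumours of DSS rats, normal colon of the same DSS rats, tumours of untreated rats and normal colon of the same untreated rats, with 5 rats in each. DSS, an agent that injures the colonic epithelium, was given at 4% (molecular weight 500000) in the drinking water on days 40 to 47 and again on days 54 to 61. Tumours and normal tissue came from the distal colon, and the normal colon carried the same inherited Apc mutation as the tumours. Each sample, labelled with Cy3, was hybridized to a 2-colour array beside a pool of wild-type rat colon RNA labelled with Cy5, and 4 of the 20 samples had a second array, giving 24 arrays. Values are log2 of sample over pool, so that 0 stands for the level in the pool. The dyes were not swapped, so a distance from 0 can hold a dye difference as well as a difference in RNA, and only differences between groups are tested.

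The arrays fell into 2 sets by slide: 4 slides with 16 arrays of rats 1 to 6, and 2 slides with 8 arrays of rats 7 to 10. The second set was also scanned on its own day, so slide set and scan day cannot be told apart. Both sets hold all 4 groups. The Cy5 signal was saturated for 388 to 452 probes per array in slide set 2, among them 35 to 39 member probes, against 29 to 152 probes, 3 to 14 of them member probes, in slide set 1. On 3 arrays, the tumour of DSS rat 9 and the normal colon of untreated rats 2 (first array) and 4, a raised share of probes (86.9% to 95.2%) was well above background. The labelled tissue was checked with 11 markers of absorptive colonocytes, which were well above background on every array.

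Tumours were set against normal colon of the same treatment. The transcripts of the OXPHOS subunits were slightly lower in tumours, with a median difference of -0.27 on the log2 scale in DSS rats (0.40, of the other sign, when arrays were median-centred) and -0.21 in untreated rats, against medians of 0.02 and 0.00 over all features. In DSS rats 56 of the 70 subunits (80%) lay below 0, and in untreated rats 58 of 70 (82.9%), against 45.1% and 50.4% of all features. Few single genes passed the test. At a limma adjusted p under 0.05 (Benjamini-Hochberg, taken over every feature tested), 7 of the 78 members changed in DSS rats, all lower, which is 8.97% against a background of 7.57% of all features in either direction with 3.84% lower and 3.73% higher. In untreated rats 11 members changed, 8 lower and 3 higher, which is 14.1% against a background of 18%, of which 9.43% were lower and 8.57% higher. Of the 70 subunits, 6 (8.57%) passed in DSS rats and 8 (11.4%) in untreated rats, all lower. The other members past the threshold were Upk1a in DSS rats, which is not an OXPHOS gene, and 3 assembly factors of complex I in untreated rats. In this fit, which has no block for rat or slide set, the share of members past the threshold in either direction was near the background in both comparisons. Tumours and normal colon did not overlap for 7 members in DSS rats, all lower and Upk1a among them, against a background of 3.79% of features lower and 3.81% higher. In untreated rats they did not overlap for 4 lower and 4 higher, against 6.1% and 6.2%. The higher ones were Ndufaf1, Ndufaf4, Ndufaf7 and Emc8, none of them a subunit. The standard error of a member's difference had a median of 0.17, and most of the differences did not pass.

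The mean of the 70 subunits was lower in the tumour than in the normal colon of the same rat in 5 of 5 DSS rats and in 5 of 5 untreated rats. It was -0.80 ± 0.10 in tumours and -0.55 ± 0.13 in normal colon of DSS rats, and -0.75 ± 0.11 in tumours and -0.53 ± 0.15 in normal colon of untreated rats (SD, n = 5 rats each). The difference within a rat ranged from -0.49 to -0.12 in DSS rats and from -0.36 to -0.08 in untreated rats. Each of the 5 complexes had the same direction in every rat. Because tumour and normal colon came from the same rats, a fit with the rat as a random block was set beside the main one. It called 18 members in DSS rats (23.1%, 3 higher and 15 lower, background 12.9%) and 17 in untreated rats (21.8%, 4 higher and 13 lower, background 24.9%). With slide set as a block the counts were 30 (38.5%, 2 higher and 28 lower, background 12.2%) and 21 (26.9%, 3 higher and 18 lower, background 25.1%). With either block the share in either direction was above the background in DSS rats and near it in untreated rats. By direction, the rat block called 1630 of 26511 features lower and 1777 higher in DSS rats. In untreated rats it called 3450 lower and 3141 higher, so the members' calls lay more to the lower side than those of all features. In the fit without a block, leaving out single rats moved the counts of 7 and 11, and also the backgrounds of 7.57% and 18%. In DSS rats 3 members passed without rat 1 (background 4.48%) and 4 without rat 2 (7.52%), 7 (6.25%) or 9 (4.57%). In untreated rats 5 passed without rat 8 (background 9.93%) and 7 without rat 4 (12.9%).

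The direction of the medians changed with the normalization. With median centring in place of loess the members' median in DSS rats was 0.40, where all features had 0.25. In limma 1 member passed there (1.28%, background 2.47%). In untreated rats the members' median was -0.27, where all features had -0.05, and none passed in limma (background 3.44%). With scaling between arrays added, the members' median was -0.19 in DSS rats and 0.09 in untreated rats.

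**Figure D1:**
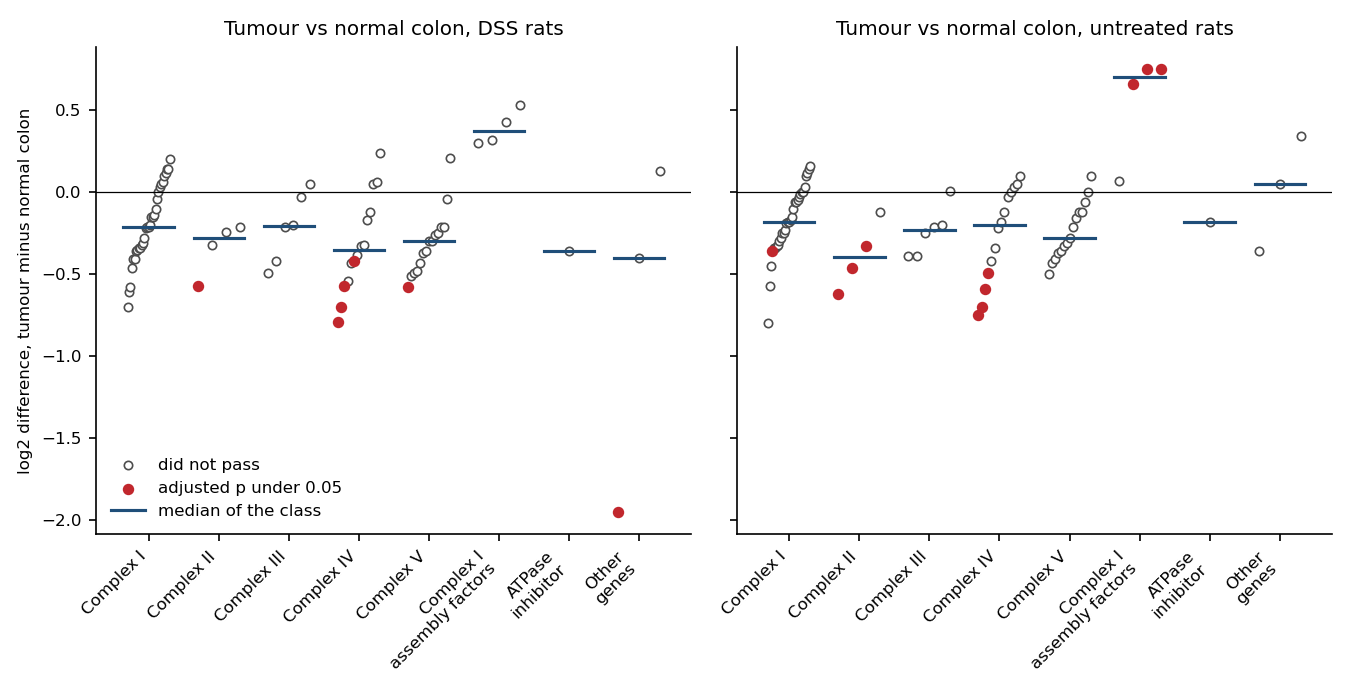
Log2 difference of tumour minus normal colon for each of the 78 members, by class, in DSS rats and untreated rats; each point is 1 gene, filled red where its adjusted p is under 0.05, and the bar is the class median. After loess normalization the medians of all 5 complexes lie below 0 (in DSS rats they lie above 0 with median centring), from -0.36 to -0.21 in DSS rats and from -0.39 to -0.18 in untreated rats, while the assembly factors of complex I lie above 0; the lowest point, at -1.95 in DSS rats, is Upk1a, which is not an OXPHOS gene.

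Complex II, succinate dehydrogenase, joins the TCA cycle to the respiratory chain. All 4 of its subunits lay below 0 in both comparisons, 1 past the threshold in DSS rats and 3 in untreated rats (25% and 75% of the class, against 7.57% and 18% of all features), with medians of -0.28 and -0.39. Sdhd, a membrane anchor, had log2 ratios of -0.95, -0.83, -1.17, -1.21 and -1.21 in tumours of DSS rats 1, 5, 6, 7 and 9, against -0.54, -0.51, -0.56, -0.32 and -0.57 in their normal colon. In untreated rats 2, 3, 4, 8 and 10, Sdhd stood at -0.43, -0.78, -1.27, -1.10 and -0.80 in tumours, against -0.22, -0.38, -0.30, -0.21 and -0.14 in normal colon. The tumour values lay below all normal values under both treatments. Sdhd fell by 0.57 ± 0.12 on the log2 scale in DSS rats (SE, n = 5 rats per group, limma adjusted p = 0.00634) and by 0.62 ± 0.12 in untreated rats (limma adjusted p = 0.00171), which is 1.49-fold and 1.54-fold. With median centring the difference in DSS rats had the other sign, 0.15. The pool signal of Sdhd was saturated on 8 of 24 arrays. Here and in what follows a value in parentheses after a difference is its limma adjusted p, and the error of a difference is its SE.

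Sdhb, the iron-sulfur subunit, averaged -1.25 ± 0.14 in tumours and -1.0 ± 0.12 in normal colon of DSS rats, and -1.19 ± 0.12 in tumours and -0.87 ± 0.03 in normal colon of untreated rats (SD, n = 5 each). Tumours and normal colon of untreated rats did not overlap, and Sdhb fell by 0.33 ± 0.08 there (limma adjusted p = 0.00576), but stood at 0.67 with scaling between arrays. Its difference in DSS rats, -0.24 ± 0.08, did not pass (adjusted p = 0.059) without the rat as a block, and passed with it (0.0132). Sdha, the flavoprotein that oxidizes succinate, fell by 0.46 ± 0.15 in untreated rats (adjusted p = 0.0388) and differed by -0.21 ± 0.15 in DSS rats (0.489). The Sdha call in untreated rats was lost in 13 of 24 alternative settings of the processing. Sdhc, the other membrane anchor, differed by -0.32 in DSS rats (0.48, and 0.0341 with slide set as a block) and -0.12 in untreated rats (0.816). No subunit of any complex passed the test of the difference between treatments.

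Complex IV, cytochrome c oxidase, is the site of oxygen use. Of its 14 genes, 4 fell in DSS rats and 4 in untreated rats, which is 28.6% of the class in both, against 7.57% of all features in DSS rats (3.84% lower) and 18% in untreated rats (9.43% lower), with class medians of -0.36 and -0.20. Cox5b, a structural subunit that binds zinc, had -1.15, -1.26, -1.48, -1.38 and -1.42 in tumours of DSS rats 1, 5, 6, 7 and 9, against -0.60, -0.74, -0.97, -0.26 and -0.62 in their normal colon. In untreated rats 2, 3, 4, 8 and 10 the values of Cox5b were -0.87, -0.89, -1.21, -1.12 and -0.94 in tumours, against -0.42, -0.45, -0.59, -0.29 and -0.34 in normal colon. Tumours and normal colon did not overlap under either treatment. Cox5b fell by 0.70 ± 0.11 in DSS rats (SE, limma adjusted p = 0.000516) and by 0.59 ± 0.11 in untreated rats (limma adjusted p = 0.00104), or 1.62-fold and 1.5-fold, and stood at 0.03 in DSS rats with median centring. A second probe of Cox5b gave -0.46 (adjusted p = 0.0994) and -0.48 (0.046). The pool signal of each Cox5b probe was saturated on 8 of 24 arrays.

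Cox8a, a small subunit, averaged -0.94 ± 0.23 in tumours and -0.37 ± 0.28 in normal colon of DSS rats, and -0.75 ± 0.28 in tumours and -0.26 ± 0.27 in normal colon of untreated rats (SD, n = 5 each). It fell by 0.57 ± 0.16 in DSS rats (limma adjusted p = 0.0397, with a difference of 0.14 under median centring) and by 0.49 ± 0.16 in untreated rats (0.0432). The groups overlapped, although the tumour was lower in each of the 10 rats, and the pool signal of Cox8a was saturated on 20 of 24 arrays. Among 24 alternative settings of the processing, the Cox8a call was lost in 14 in DSS rats and in 16 in untreated rats. In DSS rats Cox5a and Cox7b, further structural subunits, also fell, by 0.42 ± 0.10 (limma adjusted p = 0.0138, with a difference of 0.29 under median centring) and 0.79 ± 0.23 (0.0432). The Cox7b difference was -0.05 under median centring (0.923), and did not pass with scaling between arrays (-0.61), with no signal filter (0.0591), in slide set 2 alone (0.137) or without any one of rats 1, 2, 5, 6, 7 and 9 (adjusted p between 0.0557 and 0.205). A second Cox5a probe, well above background on 14 arrays, gave 0.11 there (0.71). In untreated rats Cox5a and Cox7b differed by -0.12 (0.5) and -0.34 (0.365).

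In untreated rats Cox4i1, the regulatory subunit that binds ATP, fell by 0.70 ± 0.23 (limma adjusted p = 0.0396, with a difference of 0.66 under scaling between arrays), and differed by -0.43 in DSS rats (0.312, and 0.0197 with slide set as a block). Cox7a2l stood at -0.75, -0.71, -1.08, -0.46 and -0.73 in tumours of untreated rats 2, 3, 4, 8 and 10, against -0.14, -0.10, -0.28, 0.24 and 0.32 in normal colon. It fell by 0.75 ± 0.17 (limma adjusted p = 0.00462), and differed by -0.33 in DSS rats (0.3).

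**Figure D2:**
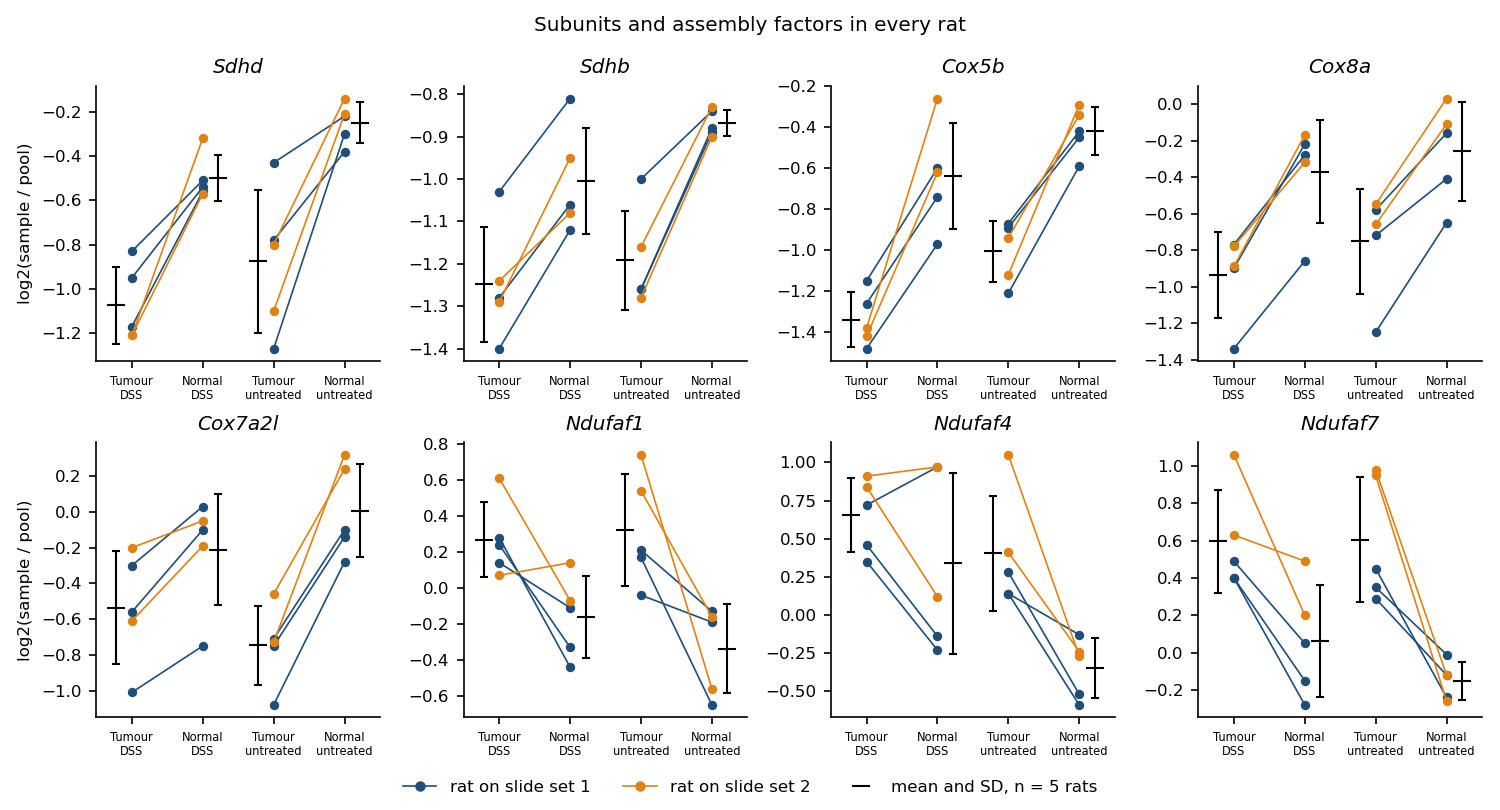
Log2 ratio of sample to pool for 5 subunits and 3 assembly factors in each rat, with tumour and normal colon of DSS rats and then of untreated rats along each horizontal axis; a line joins tumour and normal colon of 1 rat, blue for slide set 1 and orange for slide set 2, and black marks give the mean and SD of 5 rats. Sdhd and Cox5b are lower in all 10 tumours with no overlap within a treatment, and the 3 assembly factors are higher in all 5 tumours of untreated rats.

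Complex I, the entry point for electrons from NADH, had 31 genes, of which 22 lay below 0 in DSS rats and 25 in untreated rats, with medians of -0.21 and -0.18. In DSS rats none passed, against 7.57% of all features. Ndufb11, an accessory subunit of the membrane arm, was the 1 that passed in untreated rats, which is 3.23% of the class against 18% of all features. It averaged -1.49 ± 0.02 in tumours and -1.15 ± 0.20 in normal colon of DSS rats, and -1.35 ± 0.17 in tumours and -0.99 ± 0.19 in normal colon of untreated rats (SD, n = 5 each). Ndufb11 fell by 0.36 ± 0.10 in untreated rats (limma adjusted p = 0.0219, with a difference of 0.62 under scaling between arrays). In DSS rats its groups did not overlap, with a difference of -0.34 that did not pass (0.0526) without a block, and passed with the rat (0.0123) or slide set (0.00551) as a block. Ndufv1, which binds NADH, differed by 0.05 ± 0.14 (0.885) in DSS rats and -0.28 ± 0.14 (0.206) in untreated rats, and Ndufs1, an iron-sulfur subunit, by 0.14 ± 0.27 (0.841) in DSS rats and -0.01 ± 0.27 (0.996) in untreated rats. Neither gene passed in either comparison. Ndufa1, singled out after its values were seen, differed by -0.70 in DSS rats and -0.80 in untreated rats, and its pool signal was saturated on 15 of 24 arrays. The differences did not pass (0.248 and 0.112), but did with slide set as a block (0.00368 and 0.000633).

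Complex III, cytochrome bc1, had 6 genes, of which none passed in limma, against 7.57% of all features in DSS rats and 18% in untreated rats. At an unadjusted p under 0.05 there was 1 lower in DSS rats and 1 in untreated rats. Uqcrfs1, the Rieske iron-sulfur protein, differed by -0.49 ± 0.16 (0.0761) in DSS rats and -0.39 ± 0.16 (0.11) in untreated rats. It passed in both with the rat as a block (0.018 in DSS rats and 0.0358 in untreated rats) and with slide set as a block (0.00223 and 0.00544). Uqcrh differed by -0.42 (0.54) in DSS rats and -0.39 (0.523) in untreated rats, and passed in both with slide set as a block (0.00822 and 0.00741). The pool signal of Uqcrh was saturated on 15 of 24 arrays. Uqcrc1, a core protein, differed by 0.05 ± 0.13 (0.888) in DSS rats and -0.21 ± 0.13 (0.345) in untreated rats. The probe of Uqcrq was well above background on 5 arrays, 1 of a tumour of a DSS rat and 4 of normal colon of untreated rats, so no fold is given for it.

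Complex V had 15 genes, 14 below 0 in DSS rats and 13 in untreated rats, with medians of -0.30 and -0.28. In DSS rats 1 passed (6.67% of the class, against 7.57% of all features), and in untreated rats none did, against 18%. Atp5me, a subunit of the membrane part, fell by 0.58 ± 0.17 in DSS rats (limma adjusted p = 0.0486, with a difference of 0.13 under median centring) and differed by -0.12 in untreated rats (0.745). The Atp5me call in DSS rats was lost in 14 of 24 alternative settings of the processing. Its pool signal was saturated on all 24 arrays, so its ratio is distorted to an unknown extent. Atp5f1a, the alpha subunit of the catalytic head, differed by 0.21 ± 0.26 (0.729) in DSS rats and -0.43 ± 0.26 (0.301) in untreated rats, and Atp5f1b, the beta subunit, by -0.04 ± 0.24 (0.954) in DSS rats and -0.50 ± 0.24 (0.175) in untreated rats. Atp5if1, which blocks ATP hydrolysis by the enzyme, differed by -0.36 ± 0.26 (0.479) in DSS rats and -0.18 ± 0.26 (0.729) in untreated rats. None of these 3 passed without a block, and with slide set as a block Atp5f1b passed in untreated rats (0.00965).

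**Figure D3:**
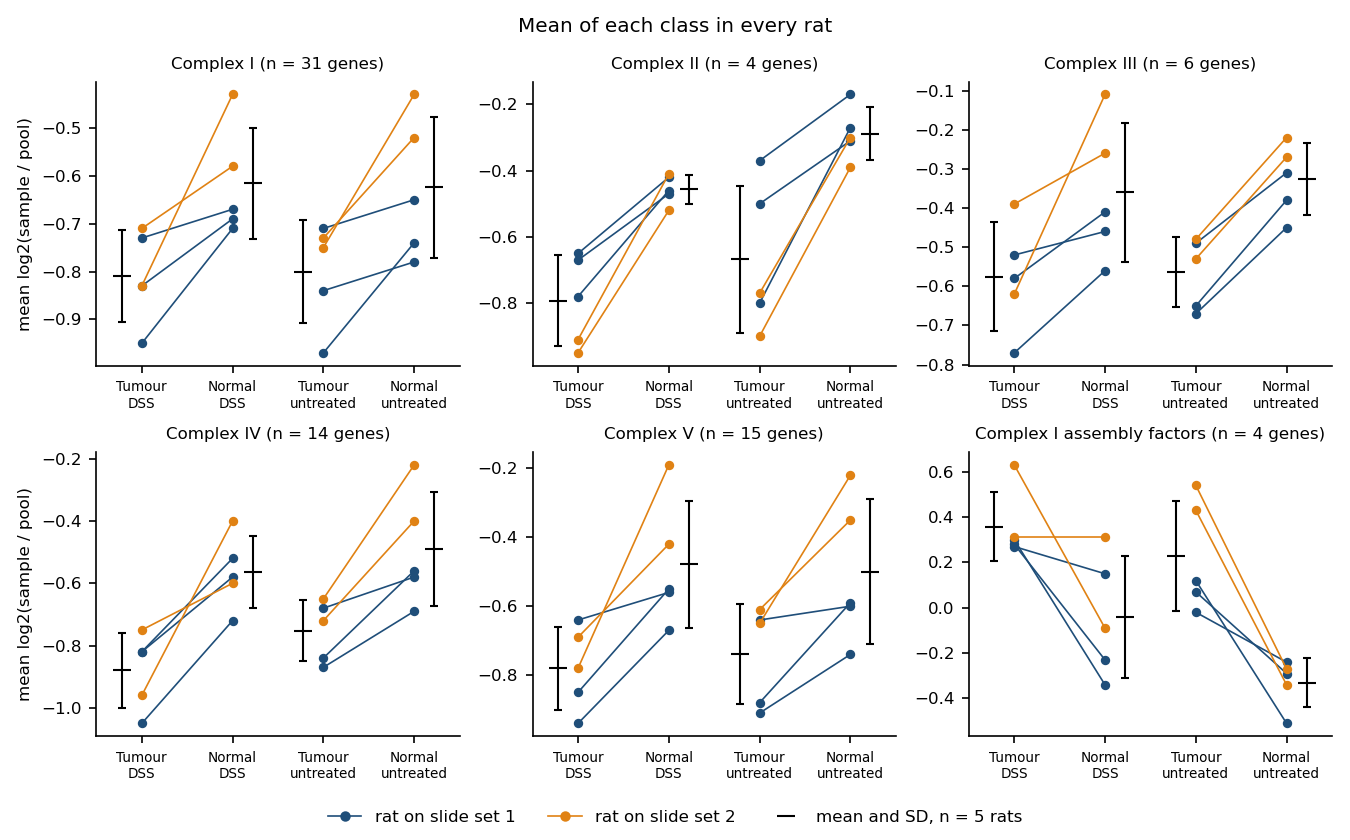
Mean log2 ratio of sample to pool over the genes of each complex and over the 4 assembly factors of complex I in every rat, for tumour and normal colon of DSS rats and of untreated rats; a line joins tumour and normal colon of 1 rat, blue for slide set 1 and orange for slide set 2, and black marks give the mean and SD of 5 rats. After loess normalization, which these values use, the mean of each of the 5 complexes is lower in the tumour of every rat. The mean of the 4 assembly factors that the name rule took in is higher in the tumour of all 5 untreated rats and of 4 of 5 DSS rats. The remaining DSS rat has a difference of 0.

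The assembly factors of complex I help to build the complex and are not part of it, and the 4 described here are only those that the name rule took in. Their median difference was 0.38 in DSS rats and 0.71 in untreated rats, above 0 where the medians of the 5 complexes lay below it. Under median centring both lay above 0 in DSS rats, the subunits with a median of 0.40 and 68 of 70 above 0, and the assembly factors with 1.0 and 4 of 4. In untreated rats the medians under median centring were -0.29 for the subunits and 0.57 for the assembly factors. None of the 4 assembly factors passed there in limma (background 3.44%), and 0 at an unadjusted p under 0.05. Their mean was 0.36 ± 0.15 in tumours and -0.04 ± 0.27 in normal colon of DSS rats, and 0.23 ± 0.24 in tumours and -0.33 ± 0.11 in normal colon of untreated rats (SD, n = 5 each). In untreated rats 3 of the 4 (75%) rose in tumours, against 18% of all features in either direction and 8.57% higher. Ndufaf7, a mitochondrial methyltransferase, stood at 0.35, 0.45, 0.29, 0.95 and 0.98 in tumours of untreated rats 2, 3, 4, 8 and 10, against -0.01, -0.24, -0.12, -0.26 and -0.12 in normal colon. Ndufaf7 rose by 0.75 ± 0.16 (SE, limma adjusted p = 0.00371, 1.69-fold). Ndufaf1, a factor for the membrane arm, stood at -0.04, 0.17, 0.21, 0.74 and 0.54 in the same tumours, against -0.19, -0.65, -0.13, -0.56 and -0.16 in normal colon. Ndufaf1 rose by 0.66 ± 0.15 (limma adjusted p = 0.00558, 1.58-fold). For neither gene did tumours overlap with normal colon, and 6.2% of all features were likewise higher without overlap.

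Ndufaf4, which works in early assembly, rose by 0.75 ± 0.23 in untreated rats (limma adjusted p = 0.0282), also with no overlap, and its other probes gave 0.47 (0.0253) and 0.48 (0.0259). Ndufaf3, its partner, differed by 0.07 ± 0.11 (0.768). In DSS rats none of the 4 passed in limma, 3 being higher at an unadjusted p under 0.05: the differences were 0.53 for Ndufaf7 (0.0568), 0.43 for Ndufaf1 (0.104), 0.32 for Ndufaf4 (0.487) and 0.30 for Ndufaf3 (0.108). With the rat as a block Ndufaf7 (0.0172), Ndufaf1 (0.0494) and Ndufaf3 (0.0461) passed there. The difference between treatments did not pass for any of the 4, with -0.22 ± 0.23 for Ndufaf7 and -0.44 ± 0.33 for Ndufaf4.

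Where both had a probe, the tissue-specific isoforms of complex IV were set beside their ubiquitous partners, each as its own difference. Cox6a2, the isoform of heart and skeletal muscle, differed by 0.05 ± 0.11 (0.849) in DSS rats and 0.05 ± 0.11 (0.848) in untreated rats, and its partner Cox6a1 by -0.54 ± 0.17 (0.0666) in DSS rats and -0.42 ± 0.17 (0.105) in untreated rats. The pool signal of Cox6a1 was saturated on all 24 arrays and its sample signal on 2, so its ratio is distorted to an unknown extent. Cox4i2, an isoform known from lung, differed by -0.17 ± 0.07 (0.174) in DSS rats and -0.03 ± 0.07 (0.857) in untreated rats. Cox7a2, the isoform of most tissues, differed by -0.32 (0.458) and -0.18 (0.666). None of these passed without a block. With the rat as a block Cox6a1 passed in DSS rats (0.0149) and in untreated rats (0.033), and with slide set as a block Cox6a1 (0.0328) and Cox7a2 (0.0494) passed in DSS rats. Cox6b2, the testis isoform, whose partner Cox6b1 had no probe named here, was well above background on 7 arrays and on none of normal colon of DSS rats. For Cox8b, a muscle isoform in rodents, the probe used differed by 0.06 (0.769) and 0.00 (0.995), while a probe made from its RefSeq transcript and well above background on 12 arrays gave 0.01 (0.976) and -0.72 (0.00764). Probes of Cox8b, and of Ndufc2, lie on opposite strands, so which strand each reads is uncertain.

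DSS was set against no treatment within each tissue. In normal colon 1 of the 78 members passed, 1.28% against a background of 7.27% (3.92% higher and 3.35% lower), and it was Upk1a, which is not a subunit. None of the 70 subunits passed with limma. At an unadjusted p under 0.05, 2 of them were higher and 1 was lower, and their median was -0.02 against -0.01 over all features. Ndufaf4 differed by 0.69 ± 0.23 (adjusted p = 0.0797), and passed with slide set as a block (0.032), as did Cox4i1 at -0.40 (0.0274) and Ndufb6 at 0.22 (0.0462). Cox8b differed by -0.22 ± 0.08 (0.102), Sdhd by -0.25 ± 0.12 (0.255) and Cox5b by -0.22 ± 0.11 (0.258).

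In tumours no member and no feature passed in limma, a background of 0%, with 3 members higher and 2 lower at an unadjusted p under 0.05. Ndufv1 differed by 0.46 ± 0.14 (limma adjusted p = 0.488) and Cox5b by -0.33 ± 0.11 (0.518). The DSS effect in tumours minus that in normal colon passed for 1 member, Upk1a again, against a background of 2.52% (0.837% higher and 1.69% lower). Cox5a differed by -0.30 ± 0.14 in that test (0.329) and Cox7a2l by 0.42 ± 0.24 (0.434). These comparisons share groups with the tumour comparisons above.

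The 3 remaining genes that the name rule took in are not subunits. The probe named Cox6b_predicted carries the identifier of Upk1a, a uroplakin of the urothelium. It had 2.45, 2.43, 1.28, 0.67 and 2.99 in normal colon of DSS rats 1, 5, 6, 7 and 9, against -0.11, 0.01, 0.04, 0.25 and 0.00 in normal colon of untreated rats 2, 3, 4, 8 and 10. Normal colon of every DSS rat was above that of every untreated rat, which held for no other member and in no member the other way, against a background of 4.52% of features higher and 4.08% lower, while tumours of DSS rats stood between -0.15 and 0.11. Upk1a rose by 1.93 ± 0.29 with DSS in normal colon (limma adjusted p = 0.000425) and was lower by 1.95 ± 0.29 in tumours of DSS rats (0.000361). The probe was well above background on 1 array of tumours and 6 of normal colon of DSS rats, and on 1 of tumours and 4 of normal colon of untreated rats, so the sizes of its differences rest partly on signals not well above background. The measured markers of squamous epithelium moved with it: 9 of 9 rose with DSS in normal colon, where their mean ranged from 3.04 to 4.68 in DSS rats, against -0.49 to 1.69 in untreated rats. Their part in the Upk1a value was not tested.

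Emc8, a subunit of a membrane protein insertase of the endoplasmic reticulum, differed by 0.13 in DSS rats (limma adjusted p = 0.695) and 0.34 in untreated rats (0.123). Dmac2l, once called ATP synthase factor B, differed by -0.40 (0.33) and -0.36 (0.302). Neither passed without a block, and Emc8 passed in untreated rats with the rat as a block (0.043).

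The lower level of the subunits was present in both slide sets and varied with the brightness of the pool signal. In slide set 1 the median difference of the 70 subunits was -0.18 in DSS rats and -0.15 in untreated rats, and in slide set 2 it was -0.37 and -0.31. Of the 78 members, 38 had a saturated pool signal on at least 1 array. The 37 saturated subunits had a median of -0.38 in DSS rats and -0.30 in untreated rats, and the 33 never saturated ones -0.10 and -0.12. Of the subunits past the threshold, 6 in DSS rats and 6 in untreated rats were saturated on some array, and 0 and 2 were not. Among the saturated ones, Sdha, Sdhd, Cox5a, Cox5b, Cox7b and Ndufb11 were so on 8 of 24 arrays each. Other features with a saturated pool signal, 397 in number, had medians of -0.10 and -0.08.

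With Cy3 alone, which does not use the pool, the members' median was -0.21 in DSS rats, with 9 past the threshold (background 11.6%), and -0.17 in untreated rats, with 14 (background 19.1%). Without the 3 arrays of raised signal, 5 members passed in DSS rats (6.41%, background 5.65%) and 8 in untreated rats (10.3%, background 16.3%). The members' medians were then -0.28 and -0.24. The part of saturation in the size of the shift was otherwise not tested.

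**Figure D4:**
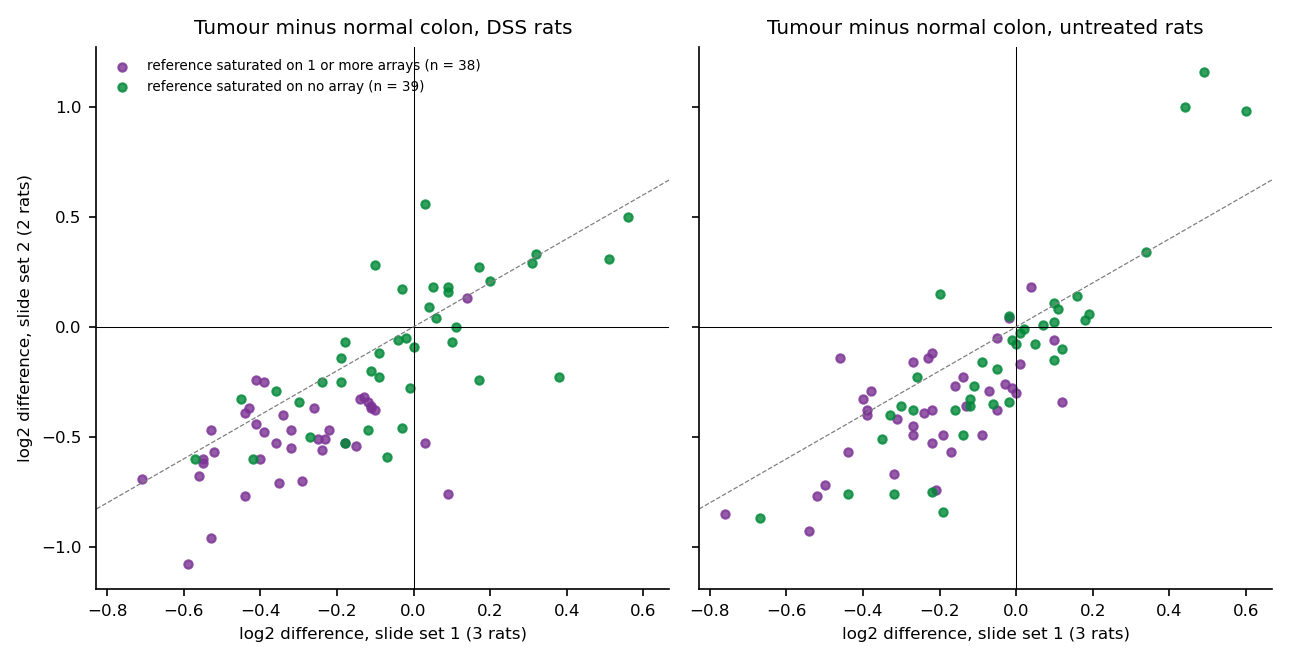
Log2 difference of tumour minus normal colon in slide set 1 (3 rats, horizontal axis) and in slide set 2 (2 rats, vertical axis) for 77 members (all but Upk1a) in DSS rats and untreated rats; purple points had a saturated pool signal on at least 1 array, green points on none, and the dashed line marks equal values. In DSS rats 55 members lie below 0 in both sets and 13 above 0 in both, and in untreated rats 52 and 12.

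Markers of particular cells moved with the tumours as well. Of 11 markers of absorptive colonocytes, 5 fell and 1 rose in DSS rats, and 6 fell and 1 rose in untreated rats, which is 54.5% and 63.6% of the list against 7.57% and 18% of all features. Their mean ranged from -3.38 to -2.57 in tumours and -1.96 to -1.42 in normal colon of DSS rats, and from -3.41 to -1.86 in tumours and -1.97 to -1.16 in normal colon of untreated rats. Of 9 leukocyte markers 2 rose in DSS rats and 4 in untreated rats. The leukocyte mean ranged from 0.65 to 0.94 in tumours and 0.51 to 0.97 in normal colon of DSS rats, and from 0.81 to 1.40 in tumours and -0.36 to -0.07 in normal colon of untreated rats. Of 7 smooth muscle markers 0 passed in DSS rats (2 higher at an unadjusted p under 0.05 in limma), and 2 fell and 1 rose in untreated rats. Their mean ranged from -1.68 to -1.28 in tumours and -2.02 to -1.57 in normal colon of DSS rats, and from -2.06 to -0.88 in tumours and -2.19 to -1.12 in normal colon of untreated rats. Of 8 striated muscle markers 1 fell in DSS rats and 1 rose in untreated rats, with means between -0.29 and 0.05 over all samples. Of 9 squamous markers 7 fell and 0 rose in tumours of DSS rats, with a median of -3.57, and 0 fell and 1 rose in untreated rats. Their mean ranged from -0.20 to 0.17 in tumours and 3.04 to 4.68 in normal colon of DSS rats, and from 0.03 to 0.40 in tumours and -0.49 to 1.69 in normal colon of untreated rats. The part of these cells in the OXPHOS values was not tested, and in bulk tissue fewer cells of a type and less RNA per cell cannot be told apart.

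The members did not vary as 1 block across the 20 samples. As a description over samples that share groups, slides and the pool, each gene was correlated with the mean of the other members (Pearson's r, n = 20). The medians were 0.733 in complex V, 0.706 in complex IV, 0.503 in complex I, 0.494 in complex II and 0.412 in complex III. Uqcrfs1 (0.92) and Cox7b (0.915) followed the mean most closely. Ndufs1 (-0.512) and Ndufs4 (-0.494), both subunits of complex I, ran against it, and the 4 assembly factors lay between -0.347 and -0.175. Of the named genes that are not members, Cisd1, an iron-sulfur protein of the outer mitochondrial membrane, was most like the members' mean (r = 0.912), followed by Arl4a (0.895), Tex9 (0.886), Rps6kb2 (0.87), Gpr15lg (0.869), Plgrkt (0.867), Ermard (0.861), Zfp26 (0.86), Cdhr1 (0.858) and Tlr6 (0.854).

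For the neighbouring mitochondrial pathways, the shares past the threshold stand against the same backgrounds of 7.57% in DSS rats and 18% in untreated rats. Of 14 TCA cycle genes none passed in DSS rats with limma (0 at an unadjusted p under 0.05) and 3 fell in untreated rats (21.4%, near the background), with medians of -0.06 and -0.19. Idh3b and Idh2, both isocitrate dehydrogenases, fell by 0.54 ± 0.11 (limma adjusted p = 0.0024) and 0.57 ± 0.16 (0.0177) there. Of 10 genes of pyruvate dehydrogenase and its control, 1 rose and 1 fell in DSS rats (20% of the list), and 1 rose and 2 fell in untreated rats (30%). Pdk3, a kinase that inhibits pyruvate dehydrogenase, rose by 0.86 ± 0.13 in DSS rats (limma adjusted p = 0.000491) and 1.02 ± 0.13 in untreated rats (6.29e-05). Mpc2, part of the mitochondrial pyruvate carrier, fell by 0.59 ± 0.14 in DSS rats (0.0164), and Pdk2, another such kinase, by 1.14 ± 0.33 in untreated rats (0.0216).

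Of 13 regulators of mitochondrial biogenesis, 1 fell in DSS rats (7.69%), and 2 fell and 1 rose in untreated rats (23.1%), both near the background. Esrra, the nuclear receptor ERR alpha, fell by 0.66 ± 0.17 in DSS rats (limma adjusted p = 0.0246) and by 0.62 ± 0.17 in untreated rats (0.0182), and Nfe2l2, a factor of the antioxidant response, fell by 0.70 ± 0.13 in untreated rats (0.00101). Of 26 assembly factors outside the name rule, none passed in DSS rats with limma (3 higher and 1 lower at an unadjusted p under 0.05) and 2 fell in untreated rats (7.69%). These were Cox10, which makes heme for complex IV, by 0.66 ± 0.17 (limma adjusted p = 0.0127) and Surf1, an assembly factor of complex IV, by 0.42 ± 0.12 (0.0173). None of the 26 rose past the threshold, and their medians were 0.07 in DSS rats and -0.07 in untreated rats. The list as drawn up also named further assembly factors of complex I. Of 14 further electron carriers none passed in DSS rats with limma (3 lower at an unadjusted p under 0.05), while in untreated rats 2 passed (14.3%, near the background): Dhodh rose by 0.36 ± 0.12 (0.0439) and Coq8a, needed for ubiquinone synthesis, fell by 1.78 ± 0.25 (9.15e-05).

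Of 18 proteins of the mitochondrial membranes, import and folding, 1 fell in DSS rats (5.56%), and 3 rose and 1 fell in untreated rats (22.2%), both near the background. Slc25a4, an exchanger of ADP and ATP, averaged 0.63 ± 0.31 in tumours and 0.16 ± 0.51 in normal colon of DSS rats, and 0.16 ± 0.41 in tumours and -2.10 ± 0.30 in normal colon of untreated rats (SD, n = 5 each). The normal colon of untreated rats thus stood apart, and Slc25a4 rose by 2.26 ± 0.23 in tumours of untreated rats (limma adjusted p = 6.31e-06) and by 2.26 ± 0.23 with DSS in normal colon (1.39e-05), comparisons that share that group. Its relative Slc25a5 fell by 0.78 ± 0.13 in tumours of DSS rats (0.000638). Tomm40, the pore of the import channel, rose by 0.55 ± 0.13 in tumours of untreated rats (0.00568) and by 0.78 ± 0.13 with DSS in normal colon (0.000966).

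Promoters are shown because OXPHOS genes are known to share motifs for a few factors. RefSeq windows of GRCr8, from 250 bases before to 50 after the start, were found for 60 of the 70 subunits and searched on both strands. CCGGAAG, the core of ETS factors such as GABP, was in 20 of 60 windows (33.3%), against 8.75% of all 33469 windows, and AGATGGC, the YY1 core, in 15 (25.0%), against 6.5%. The ERR motif AAGGTCA was in 11 (18.3%), against 4.61%, and the NRF1 core GCATGCG, which overlaps its own reverse complement, in 9 (15.0%), against 3.33%. Of the windows printed, 3 belong to subunits that fell and 2 to assembly factors that rose in tumours of untreated rats, and capitals mark these motifs on either strand. Cox5b lies at chr9:46417587-46417886 (plus strand), Sdhd at chr8:59850592-59850891 (minus), Cox4i1 at chr19:65630133-65630432 (plus), Ndufaf1 at chr3:127103971-127104270 (minus) and Ndufaf4 at chr5:43401545-43401844 (plus).
Cox5b: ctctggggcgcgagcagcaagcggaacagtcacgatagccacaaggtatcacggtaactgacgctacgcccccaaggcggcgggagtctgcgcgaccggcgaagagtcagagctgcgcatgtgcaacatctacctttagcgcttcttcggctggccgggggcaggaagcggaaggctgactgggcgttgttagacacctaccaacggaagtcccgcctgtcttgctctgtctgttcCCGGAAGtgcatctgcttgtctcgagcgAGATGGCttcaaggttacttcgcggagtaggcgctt
Sdhd: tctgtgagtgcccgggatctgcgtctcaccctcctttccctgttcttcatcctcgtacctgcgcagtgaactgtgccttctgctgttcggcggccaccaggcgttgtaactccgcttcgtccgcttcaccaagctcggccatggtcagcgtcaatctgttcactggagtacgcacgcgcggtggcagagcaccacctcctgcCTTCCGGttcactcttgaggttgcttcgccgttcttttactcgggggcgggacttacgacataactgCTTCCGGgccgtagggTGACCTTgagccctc
Cox4i1: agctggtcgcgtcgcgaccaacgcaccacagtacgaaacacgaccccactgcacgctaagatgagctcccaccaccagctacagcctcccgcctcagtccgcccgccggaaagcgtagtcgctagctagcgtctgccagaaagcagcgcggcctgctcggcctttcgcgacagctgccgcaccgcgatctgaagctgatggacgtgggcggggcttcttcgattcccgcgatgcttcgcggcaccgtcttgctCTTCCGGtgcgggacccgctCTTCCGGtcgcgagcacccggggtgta
Ndufaf1: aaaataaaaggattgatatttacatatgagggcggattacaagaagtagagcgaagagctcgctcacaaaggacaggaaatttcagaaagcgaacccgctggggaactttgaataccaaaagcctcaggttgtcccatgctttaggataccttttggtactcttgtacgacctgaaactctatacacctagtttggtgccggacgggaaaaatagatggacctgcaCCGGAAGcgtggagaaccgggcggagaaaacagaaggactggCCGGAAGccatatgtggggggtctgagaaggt
Ndufaf4: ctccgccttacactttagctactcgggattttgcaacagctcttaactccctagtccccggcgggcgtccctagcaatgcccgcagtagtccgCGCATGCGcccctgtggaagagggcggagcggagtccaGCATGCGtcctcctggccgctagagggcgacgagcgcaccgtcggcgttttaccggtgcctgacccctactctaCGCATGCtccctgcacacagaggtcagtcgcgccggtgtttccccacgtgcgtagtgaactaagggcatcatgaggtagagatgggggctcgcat
The Cox5b window holds 1 ETS and 1 YY1 match, that of Sdhd 2 ETS matches and 1 ERR motif, and that of Cox4i1 2 ETS matches. The Cox4i1 window shares 247 bases with that of Emc8 on the opposite strand. The Ndufaf1 window also holds 2 ETS matches, and that of Ndufaf4 holds 4 NRF1 matches, some of them overlapping. A match describes the letters of a window and is no evidence of binding in these tissues.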

How the data were processed

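Colon samples of 10 rats were measured on 24 two-channel arrays. Per the file headers, the authors' deposited intensity values and log10 ratios were made by Feature Extraction 9.1.3.1; the log10 ratio runs Cy5 over Cy3. Mean and background intensity as deposited were corrected with normexp (offset 50), loess-normalized within each array and expressed as log2 of Cy3 (sample) over Cy5 (pool), using limma 3.58.1 and statmod 1.5.0 under R 4.3.3. Probes had to be well above background in Cy3 on at least 5 of 24 arrays, and the brightest probe stood for a gene. Arrays of 1 sample were averaged, giving 20 samples, and 395 missing values (0.0745%) were left missing.

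A limma fit of 4 group means (16 residual and 2.24 prior degrees of freedom) ran on all 26511 features with two-sided tests, Benjamini-Hochberg adjustment and a threshold of 0.05, and was tested on simulated data. Rats are separate animals. Tumour and normal colon of a rat are paired by animal. The correlation of their deviations ranged from 0.0789 to 0.567 over all features (median 0.397). Over the members it ranged from 0.366 to 0.906 (median 0.793), and the main fit does not use this pairing. The number of arrays limits the precision, and the 95% interval of a member's difference had a median half-width of 0.36. Probes were named through RefSeq accessions (61 probes), gene ID (1), current symbol (28) or older name (5).

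Named genes were the 10 members of smallest p in each direction past the threshold, or the 3 of smallest p in each direction where fewer than 6 passed, core subunits, isoform partners, and the 2 of smallest p in each pathway list. The 10 non-members most correlated with the members' mean were added. The members and lists were chosen with earlier results of these data known. Alternatives covered background correction, normalization, filters, probe choice, blocks, slide sets, the deposited log ratio and leaving out each rat; Cy3 alone, unsaturated members and leaving out Upk1a and Emc8 were chosen after seeing the data.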

Additional observations from a re-analysis of the deposited data

Results flagged for a closer look

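Of 120 groups of 5 rats examined for a rat that stands apart from the others (Dixon's criterion), 12 held one, where chance alone flags about 1 in 20 groups. In tumours of DSS rats, Ndufb11 stood at -1.45 in rat 7 (others -1.50 to -1.49), Sdha at 0.23 in rat 7 (-0.36 to -0.22), Cox8a at -1.34 in rat 6 (-0.90 to -0.77), Cox5a at -0.73 in rat 5 (-1.24 to -1.11) and Cox6a2 at 0.16 in rat 9 (-0.49 to -0.31), whose array had raised signal. In normal colon of DSS rats, Sdhd stood at -0.32 in rat 7 (-0.57 to -0.51), Cox7a2l at -0.75 in rat 6 (-0.19 to 0.03), Cox8a at -0.86 in rat 6 (-0.32 to -0.17) and Cox6a1 at -0.56 in rat 6 (0.02 to 0.16). In tumours of untreated rats, Cox8a stood at -1.25 in rat 3 (-0.72 to -0.55), Atp5me at -1.19 in rat 3 (-0.86 to -0.74) and Cox4i2 at -0.01 in rat 4 (-0.27 to -0.20).

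The DSS effect on Upk1a differed between the tissues: tumours minus normal colon gave -2.0 (limma adjusted p = 0.0127).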

How the results depend on the processing

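Values are members past the threshold or the members' median log2 difference, tumour against normal colon unless stated. Of 260 counts and medians recomputed, 217 stayed within the spread or within 1.5 times the count and 43 moved; of single-gene values 349 kept their call, 123 lost it and 8 changed sign. A percentage in parentheses is the share of all features past the threshold in that setting. In DSS rats (7 members, 7.57%) the count was 1 with median centring (median 0.40, 2.47%) and 4 with no signal filter (4.96%). It was 18 with the rat as replicate block (12.9%), 30 with slide set (12.2%) and 30 with slide as block (12.1%). The count was 11 in slide set 1 (7.71%) and 0 in slide set 2 alone (0.415%), and 1 with scaling between arrays (2.36%). It was 1 of 40 among never saturated members (median -0.04, 7.57%) and 3 to 9 without each rat (4.14% to 7.86%). In untreated rats (11 members, 18%) it was 0 with median centring (3.44%) and 6 with the deposited log ratio (22.6%). It was 17 with the rat as replicate block (24.9%), 21 with slide set (25.1%) and 23 with slide as block (23.4%). The count was 2 with scaling (median 0.09, 8.86%), 5 of 40 among never saturated members (median -0.05, 18%) and 5 to 11 without each rat (9.93% to 19.5%). For DSS in normal colon (1 member, 7.27%) it was 2 with the deposited log ratio (10.3%), 4 with slide set (13.3%) and 5 with slide as block (13.9%). The count was 7 in slide set 1 (11.9%) and 0 in slide set 2 alone (0.00754%), and 4 with Cy3 alone (8.62%). It was 0 without Upk1a and Emc8 (7.27%) and 1 to 2 without each rat (4.56% to 8.39%). The median there was -0.18 with median centring and 0.48 with scaling. For DSS in tumours the median was 0.55 with median centring and 0.16 with scaling. For the DSS effect in tumours minus that in normal colon the count (1, 2.52%) was 0 in slide set 2 alone (0.0113%) and 0 without Upk1a and Emc8 (2.52%). It was 0 to 1 without each rat (1.21% to 3.03%), with 0 without rat 1 (1.21%). The median of that effect was 0.70 with median centring and -0.34 with scaling. Signs changed with median centring in DSS rats for Cox5b (0.03), Sdhd (0.15), Cox5a (0.29), Cox8a (0.14) and Atp5me (0.13), and with scaling in untreated rats for Sdhb (0.67), Ndufb11 (0.62) and Cox4i1 (0.66). The cause was not tested. Slide set 2 holds 2 rats per group, and saturation of the pool signal limits the bright members.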

Other observations

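In normal colon of DSS rats against that of untreated rats, 1 of 14 further electron carriers fell (7.14%), and of 18 proteins of the mitochondrial membranes, import and folding 2 rose and 1 fell (16.7%), against a background of 7.27% of all features. Coq8a, needed for ubiquinone synthesis, fell by 0.90 ± 0.25 on the log2 scale there (limma adjusted p = 0.0315). Vdac2, a channel of the outer mitochondrial membrane, fell by 0.31 ± 0.09 (limma adjusted p = 0.0476). For Slc25a4, the DSS effect in tumours minus that in normal colon was -1.79 ± 0.33 (limma adjusted p = 0.00603). Slc25a5 fell in tumours of untreated rats as well, by 0.42 ± 0.13 (limma adjusted p = 0.0236).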
